A study of Mus musculus with 6 samples.

Results

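The type I interferon antiviral genes described here are 41 mouse genes of the interferon response, taken by exact symbol from a table of 54231 usable genes: the interferon receptor, the transcription factors downstream of it, the sensors of viral nucleic acid and the proteins that block virus growth. All 41 had a row in the table. RNA sequencing had been done on cultures labelled as female germline stem cells, in 3 libraries treated with C89, a compound that the labels give by code name alone, and 3 libraries treated with the solvent DMSO, all at 8 h. The series title names autophagy and PI3K-AKT signalling as its subject and does not mention interferon. No strain, age or genotype is given in the labels, nor whether the libraries of a group were grown separately, so the p-values reflect the spread among these libraries only, and that spread may be technical.

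Type I interferons are secreted proteins that bind a receptor made of the subunits IFNAR1 and IFNAR2. The receptor activates JAK kinases, which phosphorylate STAT proteins. STAT2 and IRF9 are parts of the factor ISGF3, which binds interferon-stimulated response elements (ISREs) and switches on antiviral genes. STAT proteins also bind a second kind of site, the gamma-activated site (GAS), and many antiviral genes keep a basal level without added interferon.

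Of the 41 genes, 23 rose and 4 fell in C89 libraries, 13 did not pass the test, and Cmpk2 was too low to be tested. Every functional class also held genes that fell or did not pass the test. Among 18954 genes tested, 12.5% were called higher (2365 genes) and 13.6% lower (2581 genes); with scaling by total reads these counts were 1514 and 4100. The median log2 fold change of the 40 tested genes was 0.82, against -0.03 over all genes tested. A gene is called here at a limma adjusted p under 0.05 over all tested genes, levels are read counts normalized by size factors, and each log2 fold change is C89 over DMSO on the log2(value + 1) scale. To be tested a gene needed an average of 1 or more across the 6 libraries, which was met within each group by 39 of the 40, and Irf8 reached it through its DMSO level alone.

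Recovered reads per library numbered 7772060 to 17938295 with C89 and 17826569 to 21763459 with DMSO. C89 libraries number 2 and number 3 resembled each other closely: 0.686% of 12096 genes and 0 of 37 antiviral genes differed between them beyond sampling noise, against 25.7 to 48.4% of genes in the other pairs within a group. They were kept as 2 libraries because their counts still differed by more than sampling noise over all genes (chi-square of 1.63 for each degree of freedom). With these libraries averaged into 1 sample, 23 antiviral genes were called higher, the same 23, and 2 lower. The germ cell label had little support in 10 germ cell markers: 3 had no read anywhere, Dazl and Figla among them, Ddx4 reached 0 to 6.20 with C89 and 0.797 to 2.67 with DMSO, and nearly all of the summed level came from Tex14. Of the mast cell markers, Kit was at 38360 to 49567 in C89 and 26731 to 35469 in DMSO libraries, Cpa3 averaged 20900 in C89 and 7285 in DMSO libraries, and Gata2 averaged 24430 in C89 and 16580 in DMSO libraries, while Ms4a2 had no read and Fcer1a, Tpsb2 and Mcpt4 had 1 or 2 reads each over all libraries. For the count table, build, annotation and counter are not stated in the labels or the file.

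The promoter stretches below show the letters of both response elements in genes on which the results turn. They come from RefSeq windows of GRCm38.p6 that cover 250 bases before to 50 after each annotated start, which exist in the table used for 32 of the 41 genes. Each stretch lies upstream of the start and reads 5′ to 3′ on the strand of the gene. Capitals mark the ISRE core (GAAA, any 2 bases, then GAAA), on either strand, in Isg15, Ifit1, Ifit3, Rsad2 and Bst2, and the GAS core TTCNNNGAA in Irf1.
Isg15 (chr4:156200860-156200911, minus strand): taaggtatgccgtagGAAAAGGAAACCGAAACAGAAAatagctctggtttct
Ifit1 (chr19:34640770-34640828, plus strand): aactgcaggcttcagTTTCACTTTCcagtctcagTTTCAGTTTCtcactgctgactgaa
Ifit3 (chr19:34583358-34583431, plus strand): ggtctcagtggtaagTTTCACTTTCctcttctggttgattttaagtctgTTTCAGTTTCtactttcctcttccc
Rsad2 (chr12:26456548-26456587, minus strand): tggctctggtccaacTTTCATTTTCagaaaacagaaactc
Bst2 (chr8:71537572-71537617, minus strand): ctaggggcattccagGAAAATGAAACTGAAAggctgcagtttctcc
Irf1 (chr11:53769909-53769947, plus strand): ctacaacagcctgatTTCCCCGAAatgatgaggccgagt
Isg15 holds 3 overlapping matches of the ISRE core, and Ifit1 and Ifit3 hold 2 separate matches each. Bst2 holds 2 overlapping matches, of which the first also overlaps a GAS core.

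The receptor subunit genes moved in opposite directions. Ifnar2, which encodes the subunit with the higher affinity for interferon, stood at 1598, 1508 and 1403 in C89 libraries, against 1064, 1020 and 948 in DMSO libraries. It rose by 0.57 on the log2 scale (SE 0.09, adjusted p = 0.000835). Ifnar1, the partner subunit gene, stood at 585, 581 and 604 in C89 libraries, against 739, 854 and 997 in DMSO libraries. The groups did not overlap for either gene, and Ifnar1 fell by 0.54 on the log2 scale (SE 0.11, adjusted p = 0.00412). Leaving out DMSO library 2 left Ifnar1 short of the threshold (adjusted p = 0.0597). Within a library the Ifnar2 to Ifnar1 ratio, which no scaling changes, was 2.73, 2.59 and 2.32 with C89, against 1.44, 1.19 and 0.951 with DMSO. In the GENCODE M21 annotation Ifnar2 shares 315 bases, 9.46% of its exon bases, with Gm21970 on the same strand. Part of the Ifnar2 reads may therefore be assigned to either gene.

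**Figure D1:**
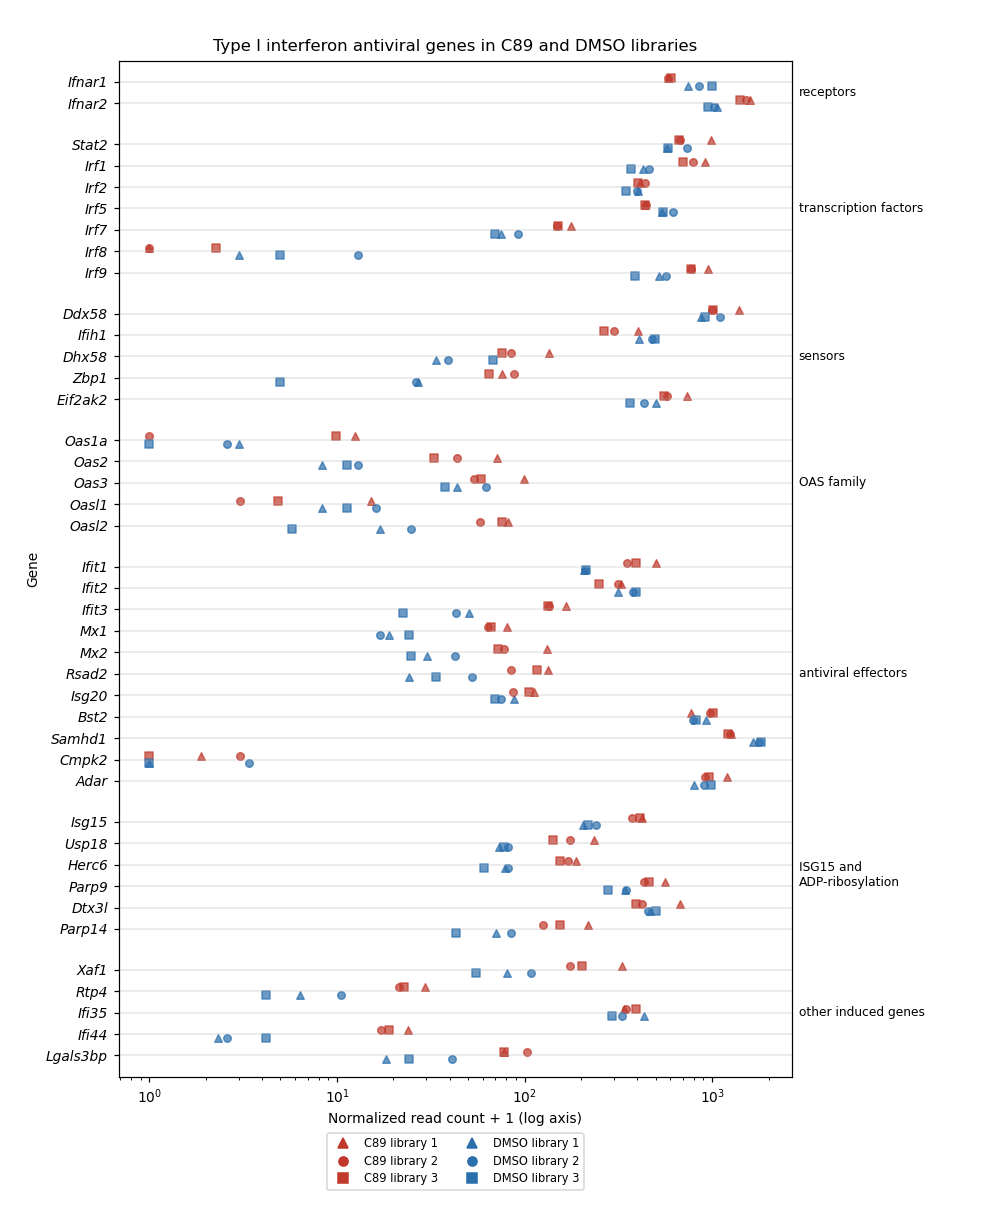
Normalized read count plus 1 (log axis) of each of the 41 genes in the 3 C89 and 3 DMSO libraries, grouped by role. Ifi44, Oas2, Oasl2 and Mx1 lie in separate ranges in the C89 and DMSO libraries, Ifnar1 and Samhd1 are separated in the other direction, and Bst2, Adar and Ifi35 overlap.

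Of the 7 transcription factor genes, Irf1, Irf7 and Irf9 rose, Irf5 fell, and Stat2, Irf2 and Irf8 did not pass the test. Irf1, a factor induced by interferons and inflammatory signals, reached 911, 786 and 699 in C89 libraries, against 427, 459 and 368 in DMSO libraries. Its log2 fold change was 0.93 (SE 0.12, adjusted p = 0.00026), and the lowest C89 library stood above the highest DMSO library. Irf7, which drives the interferon alpha genes, averaged 158 ± 15.9 in C89 and 77.8 ± 11.7 in DMSO libraries (SD, n = 3 each), a log2 fold change of 1.02. Irf9, the DNA-binding subunit of ISGF3, was at 953, 768 and 768 with C89, against 521, 571 and 387 with DMSO (log2 fold change 0.76, SE 0.14, adjusted p = 0.00221). Irf9 thus lay highest in the first C89 library and lowest in the third DMSO library.

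Stat2, which joins IRF9 in ISGF3, stood at 986, 675 and 662 in C89 libraries, against 577, 731 and 580 in DMSO libraries. The groups overlapped, and only the first C89 library lay above all DMSO libraries (log2 fold change 0.28, SE 0.15, adjusted p = 0.195). Irf5, a factor of myeloid inflammatory responses, was at 438, 441 and 436 with C89, against 541, 618 and 545 with DMSO (log2 fold change -0.37, SE 0.10, adjusted p = 0.017). The fall of Irf5 lost its call with the near-alike libraries averaged and when DMSO library 2, C89 library 2 or C89 library 3 was left out (adjusted p between 0.0566 and 0.067 over these fits). Irf8 had 1 read over the C89 libraries and 23 over the DMSO libraries, of which 15 were in the second (adjusted p = 0.0508). Irf2, a repressor of the same sites, stood at 0.12 on the log2 scale and did not pass the test (adjusted p = 0.455), and this value turned to -0.03 with scaling by total reads.

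The sensor genes split too: Dhx58, Zbp1 and Eif2ak2 rose, Ifih1 fell and Ddx58 did not pass the test. Ddx58, Ifih1 and Dhx58 encode the related RNA sensors RIG-I, MDA5 and LGP2. Dhx58 reached 134, 83.3 and 75.2 with C89, against 32.7, 38.2 and 66.9 with DMSO (log2 fold change 1.09, SE 0.29, adjusted p = 0.0159). Ifih1 stood at 399, 301 and 265 with C89, against 405, 479 and 494 with DMSO (log2 fold change -0.53, SE 0.15, adjusted p = 0.0206). For Ifih1 the first C89 library came within a few counts of the first DMSO library. Ddx58 was at 1390, 999.8 and 1015 with C89, against 868, 1102 and 921 with DMSO, so that the groups overlapped (adjusted p = 0.24). The Dhx58 to Ifih1 ratio was 0.277 to 0.335 in C89 libraries, against 0.0799 to 0.135 in DMSO libraries.

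Zbp1, a sensor of Z-form nucleic acid that can start cell death, rose with 74.4, 87.4 and 63.7 in C89 libraries, against 26.0, 25.5 and 3.98 in DMSO libraries (log2 fold change 2.31, SE 0.52, adjusted p = 0.00633). DMSO library 3 lay far below the other two, and without it the log2 fold change was 1.498. Eif2ak2, the RNA-activated kinase PKR that halts translation, averaged 619 ± 97.5 in C89 and 431 ± 67.9 in DMSO libraries (log2 fold change 0.52, adjusted p = 0.0152). All 4 sensor calls were lost in some fits with 1 library left out. Dhx58 was called only without the third DMSO library among the fits with 1 library left out, Eif2ak2 only without the first DMSO library, and Ifih1 only without the first C89 or the first DMSO library; the highest adjusted p were 0.157, 0.122 and 0.159. The log2 fold changes over these fits kept their direction, at 0.84 to 1.39 for Dhx58, 0.40 to 0.63 for Eif2ak2, 1.498 to 2.72 for Zbp1 and -0.70 to -0.40 for Ifih1. Zbp1 missed the threshold when DMSO library 2, C89 library 2 or C89 library 3 was left out (highest adjusted p = 0.0627), and Eif2ak2 also missed it with scaling by total reads.

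Oligoadenylate synthetases make a short RNA-like messenger on meeting viral RNA, which switches on the ribonuclease RNase L. Oas2 reached 70.0, 42.7 and 31.9 in C89 libraries, against 7.34, 11.95 and 10.3 in DMSO libraries (log2 fold change 2.13, SE 0.36, adjusted p = 0.00127). Oasl2, an OAS-like gene of the same family, was at 80.6, 56.9 and 75.2 with C89, against 16, 23.9 and 4.78 with DMSO (log2 fold change 2.40, SE 0.45, adjusted p = 0.00212). Both genes lay in separate ranges in the groups. Oas3 did not pass the test, at 98.3, 52.8 and 57.3 with C89 and 42.7, 61.4 and 36.6 with DMSO. Oasl1, an inhibitor of Irf7 translation in mouse, had 16, 1 and 3 reads in C89 libraries and 11, 19 and 13 reads in DMSO libraries (log2 fold change -0.93, SE 0.60, adjusted p = 0.287). Oas1a had 13, 0 and 7 reads with C89 and 3, 2 and 0 reads with DMSO (adjusted p = 0.323), and its near-identical gene copies make the count uncertain. Without C89 library 2, which had no Oas1a read, it was called higher (log2 fold change 2.49, adjusted p = 0.0402; 0.0402 to 0.693 over the alternatives that gave an adjusted p).

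Of the 11 antiviral effector genes, Ifit1, Ifit3, Mx1, Mx2 and Rsad2 rose, Samhd1 fell, and Ifit2, Isg20, Bst2 and Adar did not pass the test. Cmpk2, a nucleotide kinase gene next to Rsad2, had 2 reads over the C89 libraries and 3 over the DMSO libraries. IFIT proteins bind foreign RNA and block its translation. Ifit1 stood at 500.4, 352 and 391 in C89 libraries, against 205, 208 and 211 in DMSO libraries (log2 fold change 0.97, SE 0.14, adjusted p = 0.000431). The DMSO libraries lay within a few counts of each other while the first C89 library stood out upward. Ifit3 reached 166, 134 and 132 with C89, against 49.3, 42.2 and 21.5 with DMSO (log2 fold change 1.98, SE 0.28, adjusted p = 0.000383). Ifit3 and its near-identical copy Ifit3b may share reads, and Ifit3b was called higher as well (log2 fold change 1.72, adjusted p = 0.0424). Ifit2 was at 325, 315 and 247 with C89, against 313, 378 and 391.7 with DMSO (log2 fold change -0.29, SE 0.14, adjusted p = 0.15), and it was called lower with scaling by total reads (adjusted p = 0.0349).

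Mx1 and Mx2 encode GTPases that trap viral particles, and Mx1 is defective in many laboratory mouse strains. Mx1 reached 79.7, 63.0 and 65.0 in C89 libraries, against 18.0, 15.9 and 23.1 in DMSO libraries (log2 fold change 1.82, SE 0.26, adjusted p = 0.000449). Mx2 averaged 92.9 ± 32.4 in C89 and 31.6 ± 8.98 in DMSO libraries (log2 fold change 1.51, adjusted p = 0.00227). Rsad2, which encodes viperin, an enzyme that makes a chain-terminating nucleotide, stood at 133, 83.3 and 116 with C89, against 23.3, 51.8 and 32.6 with DMSO (log2 fold change 1.64, SE 0.29, adjusted p = 0.00146). In all of these genes every C89 library lay above every DMSO library. Samhd1, which destroys the nucleotides that retroviruses need, fell to 1259, 1244 and 1218 in C89 libraries, against 1660, 1780 and 1832 in DMSO libraries (log2 fold change -0.50, SE 0.08, adjusted p = 0.00108). Of the 4 falls, that of Samhd1 alone kept its call with each library left out in turn.

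Bst2, which encodes tetherin, a protein that holds budding viruses to the cell, was at 768, 969 and 1005 with C89, against 923, 791 and 822 with DMSO (log2 fold change 0.11, SE 0.12, adjusted p = 0.543). Adar, the RNA-editing enzyme that marks self RNA, was at 1197, 917 and 963 with C89, against 796, 900.4 and 983 with DMSO (adjusted p = 0.254). Isg20, an exonuclease gene, was at 0.39 on the log2 scale (SE 0.19, adjusted p = 0.154). The log2 fold change of Bst2 turned to -0.04 with scaling by total reads. An exon of Adar shares 1365 bases, 16.8% of its exon bases, with Chrnb2 on the other strand in the GENCODE M21 annotation, and whether strand was used in counting is not given. Exons are likewise shared with a gene on the other strand over 16.8% of Ifi35 and 14.1% of Irf5 (with Tnpo3), so their counts carry the same limit. In Rtp4 13.9% and in Herc6 13.7% of exon bases are shared with a gene on the same strand. Counting by strand would not separate those reads.

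ISG15 is a ubiquitin-like protein that is joined to other proteins by HERC6 in mouse and removed by USP18, which also damps the receptor. Isg15 stood at 422, 374 and 413 with C89, against 205, 238 and 216 with DMSO (log2 fold change 0.87, SE 0.12, adjusted p = 0.000313). Usp18 reached 234, 175 and 140 with C89, against 72.0, 80.5 and 77.2 with DMSO (log2 fold change 1.22, SE 0.19, adjusted p = 0.000844). Herc6 averaged 170 ± 17.5 in C89 and 72.7 ± 11.4 in DMSO libraries (log2 fold change 1.22, adjusted p = 0.000491). The ligase, the protease and the modifier thus rose together, each with separate ranges in the groups. Uba7, the enzyme that activates ISG15, and Ube2l6, the enzyme that carries it, are outside the 41 genes and went apart: Ube2l6 rose (log2 fold change 1.07, adjusted p = 0.00444) and Uba7 fell (-0.87, adjusted p = 0.00664).

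Parp9 and Dtx3l encode an ADP-ribosyltransferase and a ubiquitin ligase that act as a complex, and the genes lie head to head. Parp9 stood at 559, 433 and 460 in C89 libraries, against 343, 346 and 279 in DMSO libraries (log2 fold change 0.58, SE 0.13, adjusted p = 0.00616). Dtx3l was at 672, 421 and 394 with C89, against 466, 455 and 503 with DMSO (log2 fold change 0.02, SE 0.17, adjusted p = 0.946). In Dtx3l only the first C89 library lay above the DMSO range, and without it the log2 fold change was -0.22. Parp9 missed the threshold when DMSO library 2 was left out (adjusted p = 0.0534). Their exons share 458 bases on opposite strands in GENCODE M21, which is 9.4% of Parp9 and 8.0% of Dtx3l, so part of their reads may be assigned to either gene. Parp14, a further ADP-ribosyltransferase gene, rose with 217, 124 and 154 with C89, against 69.4, 83.7 and 42.2 with DMSO (log2 fold change 1.35, SE 0.26, adjusted p = 0.00275).

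Of the other induced genes, Ifi44, Rtp4, Lgals3bp and Xaf1 rose and Ifi35 did not pass the test. Ifi44, a GTPase-like interferon gene, had the highest log2 fold change of the 40 tested genes, 2.76 (SE 0.48, adjusted p = 0.00133), on 26, 8 and 14 reads in C89 libraries against 2, 2 and 4 reads in DMSO libraries. Rtp4, a receptor chaperone gene, reached 28.3, 20.3 and 21.7 with C89, against 5.33, 9.56 and 3.18 with DMSO (log2 fold change 1.89, SE 0.44, adjusted p = 0.00717). Lgals3bp, which encodes a secreted galectin-binding glycoprotein, was at 77.1, 102 and 76.4 with C89, against 17.3, 39.8 and 23.1 with DMSO. Its groups did not overlap (log2 fold change 1.70, SE 0.30, adjusted p = 0.00146). Xaf1, a pro-apoptotic partner of the inhibitor XIAP, stood at 330.4, 175 and 203 with C89, against 80.0, 108 and 54.1 with DMSO (log2 fold change 1.54, SE 0.26, adjusted p = 0.00131). Ifi35, which binds NMI, averaged 359.5 ± 30.0 in C89 and 351 ± 72.5 in DMSO libraries (adjusted p = 0.828).

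**Figure D2:**
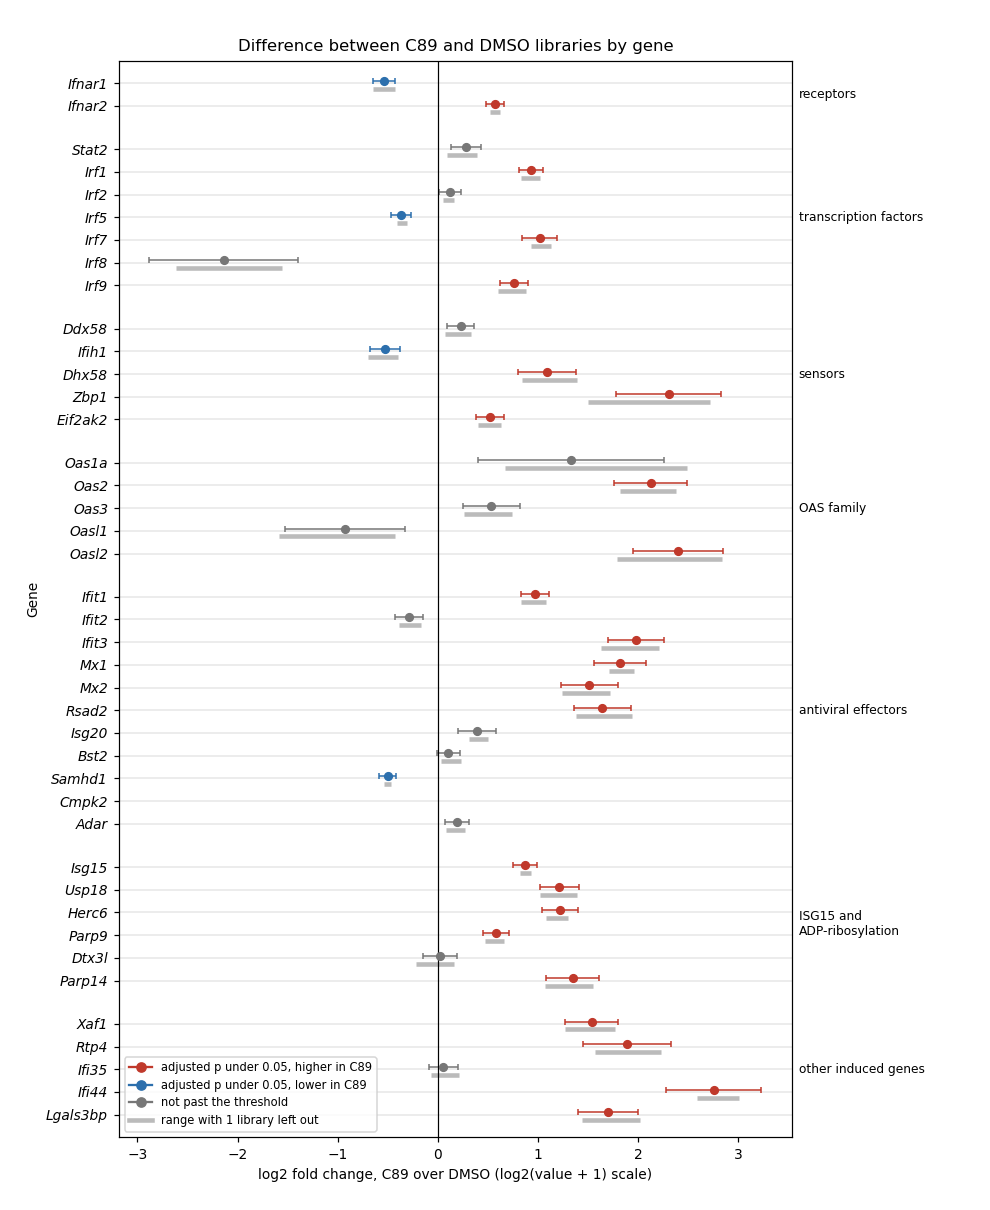
Log2 fold change of C89 over DMSO for the 40 tested genes by role, with SE as error bars and a grey bar for the range of values with 1 library left out. Points past the threshold on the right number 23, those on the left number 4, and Cmpk2 has no point because it was not tested.

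The 23 rises differed in size from 0.52 for Eif2ak2 to 2.76 for Ifi44. In 23 genes every C89 library lay above every DMSO library and in 5 every C89 library lay below, against 19.9% and 21% of all genes tested. Per kilobase of exon in GENCODE M21, the mean level in DMSO libraries spanned 0.191 normalized counts for Cmpk2 to 936 for Bst2, which was at 1012 with C89. Isg15 was at 533 with C89 and 290.4 with DMSO, and Ifnar2 at 451 with C89 and 304 with DMSO, so Isg15 came second with C89 and Ifnar2 second with DMSO. The genes with log2 fold changes above 2, which are Ifi44, Oasl2, Zbp1 and Oas2, lay at 3.11 to 21.3 per kilobase with C89 and 0.332 to 5.24 with DMSO. The authors' deposited table gave an adjusted p under 0.05 with the same direction to the same 23 and the same 4 genes and to no other of the 41, against 14.2% higher and 15% lower among the 15242 genes to which it gives an adjusted p. For Ifi44 the authors' deposited table gives a log2 fold change of 1.22, and for Oas2, Oasl2 and Zbp1 it gives 1.42, 1.45 and 1.24. Its highest value among the 41 genes is 1.55, for Ifit3. The order of the rises and the values above 2 thus depend on the estimate used.

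The first C89 library stood above the other C89 libraries in many of these genes. It was the highest of the C89 libraries in 32 of the 40 tested genes (80%) and in 21 of the 23 that rose (91.3%), against 37.3% of all genes tested and 42.3% of all genes called higher. The median of the 40 genes, as log2(value + 1) minus the mean of the DMSO libraries, was 1.03, 0.62 and 0.70 in the C89 libraries and -0.06, 0.13 and -0.12 in the DMSO libraries. Over all genes called higher the C89 libraries lay close together, with medians of 0.61 to 0.62. Without the first C89 library 21 of the 41 genes were called higher, and the median log2 fold change of the tested genes was 0.66. The third DMSO library was the lowest of its group in 60.9% of the 23 genes, near the 64.9% of all genes called higher.

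**Figure D3:**
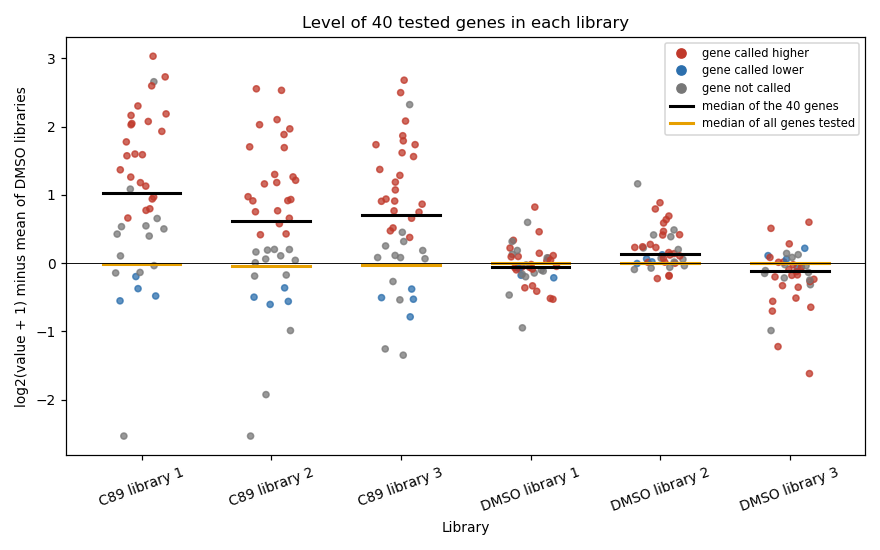
Level of each of the 40 tested genes in each library, as log2(value + 1) minus the mean of the DMSO libraries, with black bars for their median and orange bars for the median of all genes tested. The median of the 40 genes is 1.03 in the first C89 library and 0.62 and 0.70 in the others, while the median of all genes stays near 0.

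Ratios of related genes within a library were compared for 6 pairs, which were chosen after their values had been seen. Each pair set a gene that rose over a related gene that fell or did not pass the test. Higher ratios with C89 were thus built into the choice and are no further evidence. The ratio was higher in every C89 library than in every DMSO library for all 6 pairs. Each had an exact two-sided permutation p of 0.1, the smallest that 3 against 3 libraries allow, so none can pass 0.05. The Ifit3 to Ifit2 ratio was 0.426 to 0.536 with C89, against 0.0549 to 0.158 with DMSO. The Oasl2 to Oasl1 ratio was 5.69 to 28 with C89, against 0.462 to 2.18 with DMSO, with few Oasl1 reads behind it. For Irf9 to Stat2 the values were 0.967 to 1.16 with C89, against 0.667 to 0.902 with DMSO, and for Parp9 to Dtx3l 0.831 to 1.17 with C89, against 0.555 to 0.76 with DMSO.

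**Figure D4:**
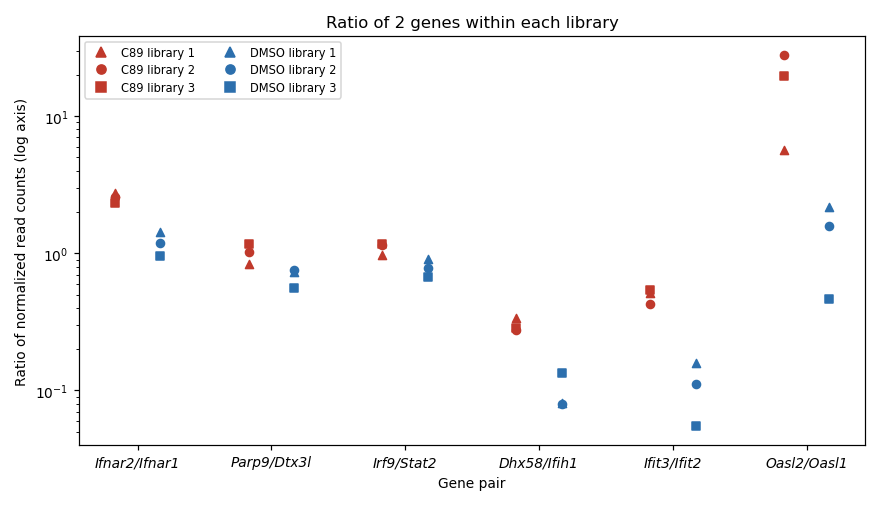
Ratio of normalized read counts of 2 genes within each library (log axis) for 6 gene pairs, with C89 libraries left of DMSO libraries. The pairs were chosen after their values had been seen. The ranges are separate in each pair, and the gap is narrowest for Irf9 to Stat2 and for Parp9 to Dtx3l.

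The ISRE core was found in the windows of 12 of the 32 genes that have a window (37.5%), against 3.99% of all 27025 genes with a window. The 9 genes without a window (Parp9, Rtp4, Zbp1, Mx1, Usp18, Dhx58, Mx2, Parp14 and Oas2) all rose, so only 14 of the 23 rises were searched and the split by outcome is incomplete. Among the genes searched, the core was in 5 of 14 that rose, 1 of 4 that fell and 6 of 13 that did not pass the test. Isg15, Ifit1, Ifit3, Rsad2 and Eif2ak2 are the genes that rose with a match. Bst2, Oas3, Ddx58, Stat2, Irf2 and Oas1a have a match and did not pass the test. The GAS core, a palindrome read once for both strands, was in 13 of the 32 (40.6%), against 9.55% of all genes with a window. It was in 3 of the 14 searched genes that rose (Irf1, Ifnar2 and Eif2ak2), 2 of 4 that fell and 8 of 13 that did not pass the test. A match describes letters and does not show binding.

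**Figure D5:**
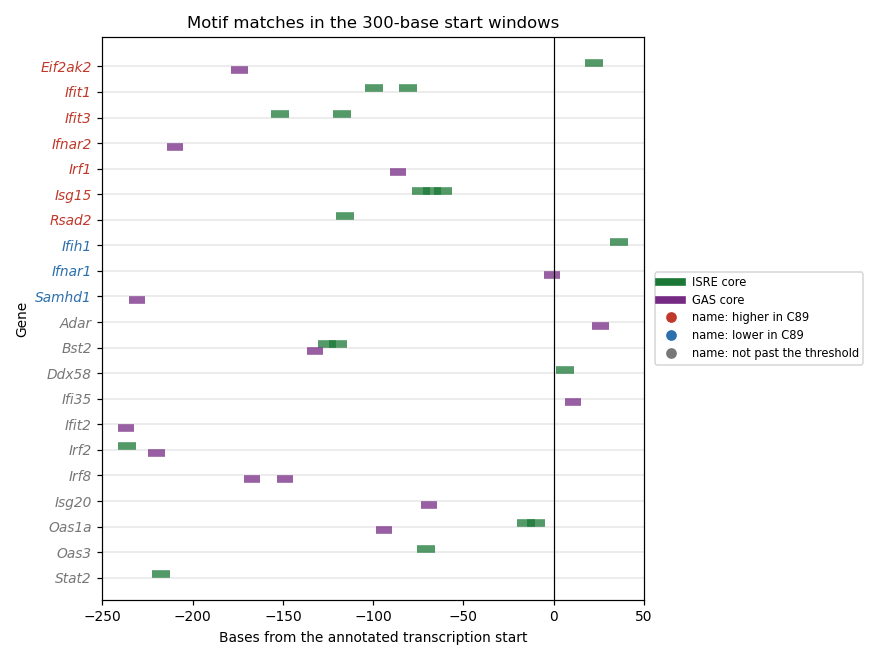
Matches of the ISRE core and the GAS core in the start windows of the 21 genes with any match, by distance in bases from the annotated start, with gene names coloured by the outcome of the test. Matches of the ISRE core occur among genes that rose, fell and did not pass the test.

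Transcripts of the interferons themselves were at or near 0. Of 21 interferon genes of types I, II and III, 19 had no read in any library, among them Ifnb1 and every interferon alpha gene listed. The C89 libraries together had 0 reads for the 21 genes in 38189999, which allows up to 3 reads per gene, or 0.0786 CPM, as counting error only. In the DMSO libraries Ifng had 2 reads and Ifnk had 1. A change that stays below such a limit, or a fall, could not be detected at this depth.

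In the route from sensors to interferon, 2 of 18 tested genes of 20 rose and 2 fell, shares near those of all genes tested (12.5% higher and 13.6% lower). The adaptor gene Mavs, which serves RIG-I and MDA5, averaged 885 ± 79.6 in C89 and 1321 ± 54.2 in DMSO libraries (log2 fold change -0.58, adjusted p = 0.000931). Irf3, the factor that this adaptor activates, averaged 856 ± 33.6 in C89 and 1106 ± 56.7 in DMSO libraries (log2 fold change -0.37, adjusted p = 0.00895). Tmem173, which encodes the DNA-sensing adaptor STING, and Unc93b1, which carries Toll-like receptors to endosomes, rose by 0.38 and 0.70 on the log2 scale. The higher genes numbered 1 without any 1 of the C89 libraries, without the third DMSO library, with the near-alike libraries averaged and with scaling by total reads, under which the lower genes numbered 4.

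Of 11 tested receptor signalling genes, 6 rose and 1 fell, against 12.5% and 13.6% of all genes tested. Socs3, an inhibitor of cytokine receptors, averaged 6847 ± 1729 in C89 and 1381 ± 796 in DMSO libraries (log2 fold change 2.50, adjusted p = 0.000516). Ifngr2 rose (0.52, adjusted p = 0.00428) and Ifngr1 fell (-0.47, adjusted p = 0.00739), so the subunit genes of the interferon gamma receptor also went apart. Socs1 rose with 0.81, while the kinase genes Jak1 and Tyk2 had log2 fold changes of 0.11 and -0.19 (adjusted p = 0.488 and 0.205). The 6 rises became 3 when C89 library 1, DMSO library 2 or DMSO library 3 was left out, and 2 when C89 library 2 or 3 was; the fall was not called without DMSO library 2. With scaling by total reads 3 were higher and 3 lower, and with the near-alike libraries averaged 3 were higher.

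Among 60 further interferon-stimulated genes, 56 were tested, of which 19 rose and 5 fell, against 12.5% and 13.6% of all genes tested, with a median log2 fold change of 0.19. The rises with the lowest p were Slfn5, a schlafen gene that averaged 1986 ± 384 in C89 and 483 ± 126 in DMSO libraries (log2 fold change 2.06), Ifi27 (1.25) and Ifitm6 (2.81). The falls with the lowest p were Cxcl10, a chemokine gene (-1.84), Uba7 (-0.87) and Daxx (-0.36). The count of rises was 12 without the third C89 or the third DMSO library, and that of falls was 2 when C89 library 2, C89 library 3 or DMSO library 2 was left out or the near-alike libraries were averaged, and 3 without DMSO library 3 or with a replicate block. In bulk RNA, a change in the number of cells of a type and a change of RNA per cell cannot be told apart.

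The summed levels of cell type markers differed between the groups, though single markers within some lists went the other way. The summed level of the 10 mast cell markers in the table was 84001 to 95209 in C89 libraries and 49438 to 59271 in DMSO libraries. Of the 6 tested, 4 rose, against 12.5% of all genes tested: Cpa3 (log2 fold change 1.52), Hdc (2.18), Gata2 (0.56) and Kit (0.47). Ms4a2 was at 0. The summed level of 10 fibroblast markers was 57.6 to 135 in C89 libraries and 138 to 2416 in DMSO libraries, highest in the second DMSO library, with Lum and Postn at 0. Of the 8 tested, 3 fell, against 13.6% of all genes tested: Fn1 (log2 fold change -4.65), Col1a2 (-2.90) and Pdgfra (-2.04). No fibroblast marker was called higher. For 10 macrophage markers the sum was 3722 to 3988 with C89 and 1802 to 2718 with DMSO, nearly all from Adgre1 and Cd68, with C1qb at 0 and Csf1r at 0 to 2.55 in C89 and 0 to 0.797 in DMSO libraries. Of the 7 tested, Adgre1 rose (log2 fold change 1.25) and the others were not called. For 8 markers of plasmacytoid dendritic cells, which are strong interferon producers, the sum was 336 to 380 with C89 and 100.3 to 219.9 with DMSO, mostly Cox6a2, with Siglech, Klk1 and Cd209d at 0. Of the 5 tested markers in this list, Cox6a2 and Pacsin1 rose. Ccr9, Tcf4 and Ly6d pointed the other way without a call, with log2 fold changes of -1.72, -2.57 and -1.58. The sum of 6 lymphocyte markers was 2.5 to 6.1 with C89 and 7.3 to 180.1 with DMSO, highest in the second DMSO library. Without that library 19 of the 23 rises and 1 of the 4 falls kept their call. Over all genes, 1133 of the 2365 called higher kept theirs. The median log2 fold change of the tested antiviral genes was then 0.91. The part of these cells in the results was not tested.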

How the data were processed

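Per the labels' protocols, RNA was extracted with Trizol, mRNA was isolated and paired-end libraries were made; a directional kit and another kit are both named. The submitters' processing notes list HISAT2 and DESeq2. Each library's deposited values are signal, that is, counts of reads that the authors had divided by a size factor; 100% of 119020 values above 0 were whole reads within 0.01 read. The authors' deposited table also holds their log2 fold change and p-value for each gene. A gene with text in a cell was left out, and 6 unnamed columns of loose cells were not used.

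On log2(value + 1), limma 3.58.1 under R 4.3.3 was run with its trend option over 18954 genes averaging 1 or more; treatment was the sole term, and p-values were adjusted by Benjamini-Hochberg with a threshold of 0.05. On recovered read counts, edgeR 4.0.16 called 4652 genes and DESeq2 1.42.0 called 4529, against 4946 by limma. The procedures were tested on simulated data. Every antiviral gene was named by role, with the 3 lowest p per direction of each pathway list and Irf3, except a gene that is not reported here; Ube2l6, Jak1, Tyk2, Ifit3b and marker genes were named after their values were seen. The members and lists were chosen with earlier results of these data known. Alternatives covered the tool, scaling, filter, pseudocount, replicate block, libraries left out and near-alike libraries averaged. Motifs were searched in RefSeq promoter windows.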

Additional observations from a re-analysis of the deposited data

How the results depend on the processing

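The 23 rises were called by edgeR, DESeq2, TMM scaling, both other filters, both other pseudocounts, the replicate block and with the second and the third C89 libraries averaged, and 22 with scaling by total reads; with 1 library left out 19 to 22 rises and 1 to 5 falls were called. Of the 27 called genes, 20 kept their call in all 16 alternatives. The falls numbered 2 with the near-alike libraries averaged. Over all genes, 3297 were called with these averaged and 2303 to 4711 with 1 library left out, against 4946. Scaling by total reads put the median log2 fold change of genes averaging 50 or more at -0.17, against -0.02. It turned Irf2 to -0.027, Bst2 to -0.042, Dtx3l to -0.13 and Ifi35 to -0.10, none of which was called. With 1 library left out, Dtx3l ranged from -0.22 to 0.165 and Ifi35 from -0.071 to 0.212; the cause was not tested. Irf8 was called lower under 5 alternatives, and Oas1a higher without the second C89 library, so 20 of the 21 rises called there were among the 23. The replicate block called 23 rises and 4 falls. Same-numbered libraries did not deviate together (correlations of -0.19, -0.18 and 0.02). With 3 libraries in a group this cannot decide whether the numbers pair the libraries, which the labels do not give. Genes of few reads are limited by the depth of the second C89 library.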
